A study of Mus musculus with 27 samples.

Results

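A set of 57 genes of chromatin remodelling and histone modification was followed in mouse pancreatic islets in which the oncogene Myc was switched on and off. They were chosen by name alone, as all genes on the array whose symbol starts with Kdm, Kmt, Hdac, Sirt, Smarc, Chd and a digit, Cbx, Hmga, Hmgb, Hmgn, Ezh, Suz12, Eed, Ruvbl, Kat, Dnmt3, Rbbp4 or Rbbp7. They make up 57 of the 8251 genes with a probe set of a single symbol. A probe set is the group of array probes read together for a transcript, and a gene with several was represented by the one with the highest mean over the 27 arrays. No katanin, which the prefix Kat could also catch, was among them. Cbx3, whose probe sets carry a second symbol, Hmga1, Hmgb1, Hmgn2, Dnmt3b and Kdm5c were not analysed here.

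RNA came from laser-captured islets of mice that carried both MycER and BclXL, each driven by an insulin promoter. MycER is a Myc protein fused to a drug-binding domain and is active while 4-hydroxytamoxifen is bound, and BclXL protects cells from death. Groups of 3 arrays came from mice killed 2, 4, 8 or 24 h after a systemic injection of 4-hydroxytamoxifen, from mice given tamoxifen daily for 21 days (as the design text has it, whereas the titles of these arrays name 4OHT, or 4-hydroxytamoxifen), from mice left 2, 4 or 6 days without drug after such a course, and from untreated mice. Every group, untreated mice included, carried both transgenes, and no group with drug but without MycER was analysed here. The insulin promoter places the transgenes in beta cells, whereas a captured islet also holds endocrine, endothelial and blood cells. In such bulk samples fewer cells of a type and less RNA per cell cannot be told apart.

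DNA in the nucleus is wrapped around histones, and the genes described here encode the enzymes and structural proteins that move, mark and pack this material. SWI/SNF (Smarc) and CHD proteins slide or evict histone octamers with energy from ATP. Acetyltransferases (Kat) and deacetylases (Hdac, Sirt) add and remove acetyl groups, methyltransferases (Kmt, Ezh) and demethylases (Kdm) do the same for methyl groups, and chromobox (Cbx) proteins read methylated lysines. Polycomb repressive complex 2, built from Ezh1 or Ezh2 with Eed, Suz12 and Rbbp4 or Rbbp7, methylates lysine 27 of histone H3 and in pancreatic islets is known for its repression of the cell cycle inhibitor gene Cdkn2a. High mobility group (Hmg) proteins bend DNA or bind nucleosomes, and Dnmt3a methylates DNA de novo.

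The deposited values are log2 signals. Array medians ranged from 6.91 to 7.01. Within groups, r across probe sets, which are not independent replicates, ran from 0.957 to 0.992. Of the markers of beta cells, 9 were measured, with a mean level between 9.78 and 10.9 on every array. Acinar markers (16 measured) had a mean level of 11.5 to 12.1 at 24 h, 7.08 to 7.57 at 21 days and 7.72 to 10.03 in untreated islets. Leukocyte markers (24 measured) were highest on 4 arrays, with means of 8.15 on replicate 1 of 2 h, 8.07 on replicate 3 of 8 h, 7.80 on replicate 2 of 2 days off and 8.24 on replicate 1 of 6 days off. Whether each array stands for its own mouse is not in the labels, and p-values therefore cover the spread between arrays, which may be technical. The precision is limited by 3 arrays per group. The means of 15 bacterial control probe sets, which should have no partner in mouse RNA unless it was spiked in, ranged from 3.58 to 7.14, and 20 of the 57 genes had a mean level below the highest of them.

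In the 4 comparisons of the first 24 h with untreated islets a single chromatin gene was called, where 0.485% to 1.91% of all genes were. After 21 days 15 of the 57 (26.3%) were called, against 16.4% of all genes. Genes were called at a limma adjusted p under 0.05, with Benjamini-Hochberg adjustment over 12422 probe sets. Tested across all 9 groups at once with limma's F test, 28 of the 57 (49.1%) were called, against 41.8% of all genes. Changes below are log2 differences with their standard errors, and levels are log2 signals.

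**Figure D1:**
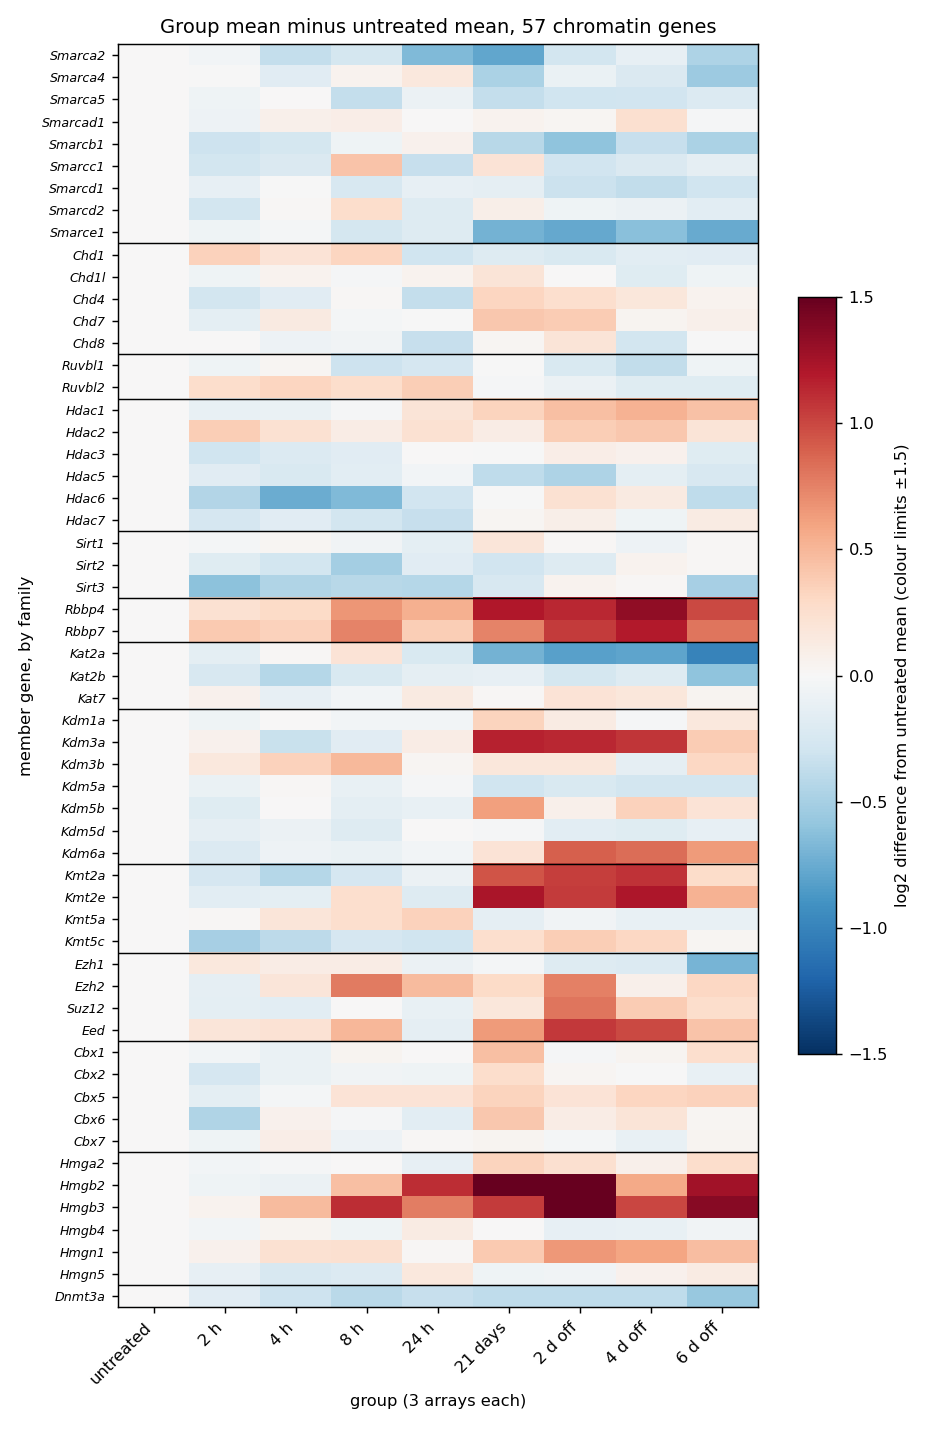
Mean level of each group minus the untreated mean, on the log2 scale, for the 57 genes ordered by family (rows) in the 9 groups (columns, 3 arrays each); red is above and blue below untreated. Hmgb2 goes past the colour limits of ±1.5, with differences of 1.54 at 21 days and 1.86 at 2 days off, as does Hmgb3 at 2 days off (1.76), and most of the strong colour lies in the 4 columns of the 21 day course.

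**Figure D2:**
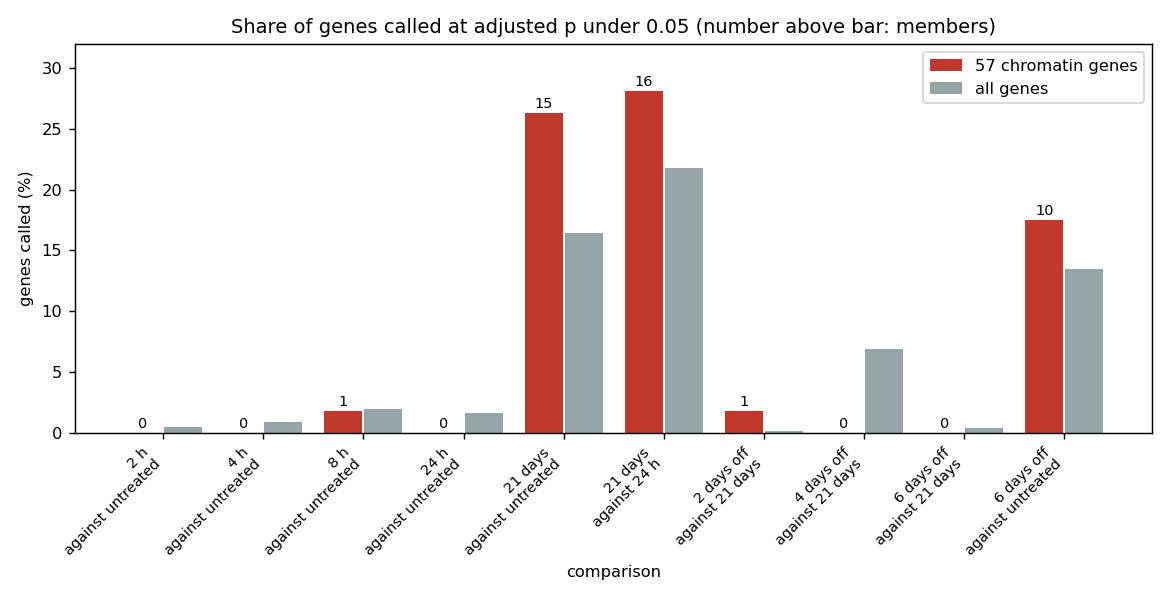
Percentage of genes called at a limma adjusted p under 0.05 in each of the 10 comparisons, for the 57 chromatin genes (red, with their number above the bar) and for all 8251 genes (grey). The bars reach 26.3% against 16.4% at 21 days against untreated and 28.1% against 21.8% at 21 days against 24 h, and no chromatin gene was called at 2, 4 or 24 h.

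At 2 h, 4 h and 24 h after the injection none of the 57 genes was called by limma. The background over all genes was 0.485% at 2 h (0.412% higher and 0.0727% lower), 0.909% at 4 h (0.57% and 0.339%) and 1.58% at 24 h (1.37% and 0.206%). With unadjusted p under 0.05 there were 6 genes at 2 h (10.5%, against 12.7% of all genes), 5 at 4 h (8.77%, against 9.68%) and 7 at 24 h (12.3%, against 12.6%). All 16 acinar markers had a positive difference from untreated at 2, 4, 8 and 24 h, with medians of 1.57, 1.385, 1.145 and 2.54. At 24 h 5 of them were called higher, and none was at the earlier times. The part of this in the counts was not tested. At 8 h 1 gene was called, Dnmt3a, which fell by 0.41 ± 0.10 (limma adjusted p = 0.0370), against a background of 1.91% in either direction, 1.15% higher and 0.764% lower. Dnmt3a encodes a de novo DNA methyltransferase. It read 6.61, 6.84 and 6.48 at 8 h and 7.07, 7.06 and 7.02 in untreated islets. The groups did not overlap, and the untreated arrays lay within 0.05 of each other. Dnmt3a was also below the lowest untreated array on every other array of the series, with group means of 6.88 at 2 h, 6.74 at 4 h and 6.71 at 24 h. The 8 h call ended when any array other than replicate 2 of 8 h was left out, with adjusted p up to 0.153.

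The 3 genes with the smallest p at 2 h were Kmt5c, a histone H4 lysine 20 methyltransferase, at -0.50 (adjusted p = 0.225), Sirt3, a mitochondrial deacetylase of the sirtuin family, at -0.62 (0.313), and Hdac6, a mainly cytoplasmic deacetylase, at -0.44 (0.350). At 4 h they were Hdac6 at -0.74 ± 0.18 (0.0609), Dnmt3a at -0.31 (0.188) and Kmt2a at -0.43 (0.407), all by limma. Hdac6 read 11.04, 11.13 and 11.10 at 4 h and 12.07, 11.91 and 11.52 in untreated islets. The groups did not overlap at 4 h. At 8 h the Hdac6 arrays read 11.52, 11.22 and 10.76, which touch the lowest untreated array. At 24 h the smallest p belonged to Dnmt3a at -0.34 (adjusted p = 0.105), Ruvbl2, an ATPase of the INO80 and TIP60 complexes, at 0.36 (0.227), and Kmt5a, which places the first methyl group on histone H4 lysine 20, at 0.34 (0.324). Ezh2, the catalytic subunit of Polycomb repressive complex 2, read 7.40, 7.31 and 7.47 at 8 h and 6.47, 6.44 and 6.92 in untreated islets. These groups did not overlap either, but the difference of 0.78 ± 0.27 was not called (limma adjusted p = 0.151).

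After 21 days of tamoxifen 15 of the 57 genes (26.3%) were called against untreated islets, 9 higher and 6 lower. Of all genes 16.4% were called, 7.95% higher and 8.46% lower. The median difference was 0.09 over the 57 genes and 0.03 over all genes. The calls were spread over the families. The KMT methyltransferases had 2 of 4 higher, the demethylases 2 of 7 higher and 1 lower, the Rbbp chaperones 2 of 2 higher, Polycomb repressive complex 2 had 1 of 4 higher and the Hmg proteins 2 of 6 higher. SWI/SNF and related ATPases had 3 of 9 lower, the acetyltransferases 1 of 3 lower, and Dnmt3a was lower. None of the 6 deacetylases, 3 sirtuins, 5 CHD helicases, 5 chromobox genes or 2 RuvB-like ATPases was called. The count fell to 7 without replicate 2 of 21 days and to 8 without replicate 3 of 21 days or replicate 2 of untreated.

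Both MLL family genes rose at 21 days. Kmt2a, which encodes the histone H3 lysine 4 methyltransferase also known as MLL, read 10.85, 10.73 and 11.10 at 21 days and 9.72, 9.96 and 10.18 in untreated islets. Every 21 day array lay above every untreated one, and the rise was 0.94 ± 0.17 (1.92-fold, limma adjusted p = 0.00123). Kmt2e, a family member that binds methylated lysine 4 and is not known to methylate histones, read 9.45, 9.74 and 9.99 at 21 days and 8.40, 8.08 and 9.02 in untreated islets. It rose by 1.23 ± 0.29 (2.34-fold, adjusted p = 0.00717), with no overlap between the groups. Kmt5a and Kmt5c differed from untreated by -0.14 and 0.25 and were not called.

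Among the demethylases, Kdm3a had the largest rise. It encodes an enzyme that removes methyl groups from histone H3 lysine 9. It read 9.15, 9.29 and 10.07 at 21 days and 8.22, 8.35 and 8.48 in untreated islets, a rise of 1.15 ± 0.19 (2.22-fold, limma adjusted p = 0.000421). Kdm5b, a histone H3 lysine 4 demethylase, read 7.31, 7.40 and 7.46 at 21 days and 6.83, 6.67 and 6.84 in untreated islets. Its rise of 0.61 ± 0.09 was smaller (1.53-fold) but came with a narrow spread (adjusted p = 0.000259). The related Kdm5a fell by 0.29 ± 0.09 (adjusted p = 0.0396), from arrays at 5.74, 5.91 and 5.85 against 6.05, 6.26 and 6.07 in untreated islets. Kdm1a, Kdm3b, Kdm5d and Kdm6a were not called. The calls of Kmt2a, Kmt2e, Kdm3a and Kdm5b held in limma fits without any 1 of the 6 arrays, with adjusted p no higher than 0.0457, and in every other setting tried. That of Kdm5a was lost in all of those fits except the one without replicate 1 of untreated, with adjusted p up to 0.166.

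**Figure D3:**
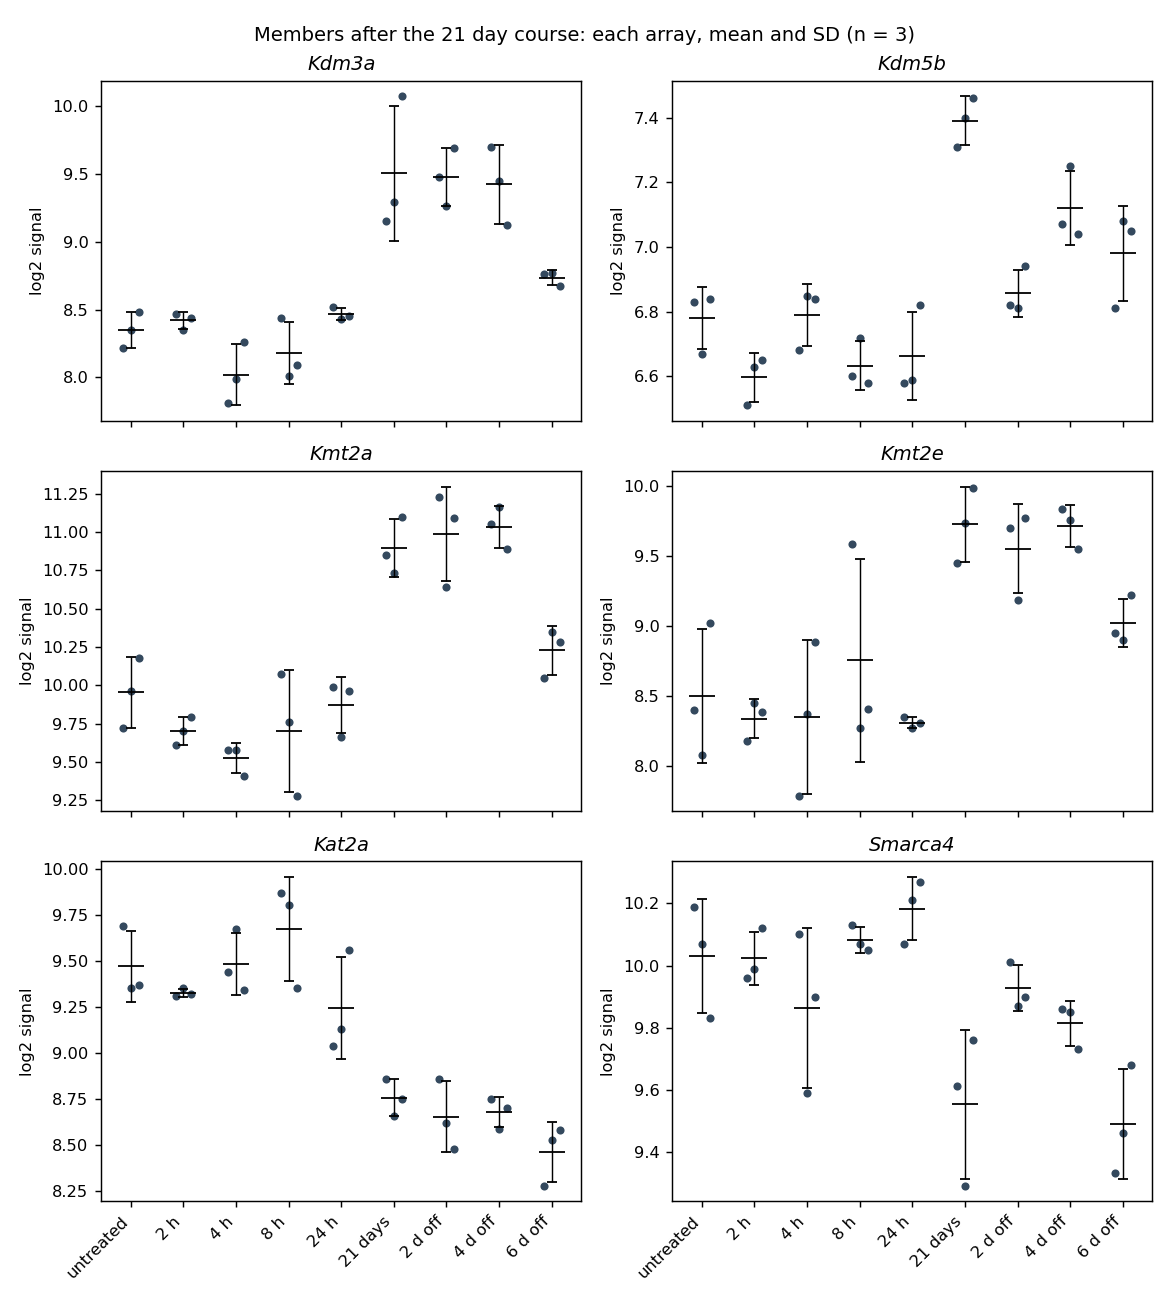
Log2 signal of 6 chromatin genes on every array in the 9 groups (points), with the group mean and SD (bars, n = 3). Kdm3a, Kmt2a and Kmt2e stand high at 21 days and at 2 and 4 days off, and Kat2a is low from 21 days to 6 days off. Kdm5b peaks at 21 days, and Smarca4 is lowest at 21 days and 6 days off.

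Both Rbbp genes, whose products bind histones within Polycomb repressive complex 2, the NuRD complex and chromatin assembly factors, rose at 21 days. Rbbp4 read 8.27, 8.55 and 9.22 at 21 days and 7.13, 7.38 and 7.94 in untreated islets. The arrays did not overlap and the rise was 1.20 ± 0.29 (2.29-fold, limma adjusted p = 0.00822). Rbbp7 read 10.72, 10.66 and 11.27 at 21 days and 9.67, 10.01 and 10.73 in untreated islets, so that replicate 3 of untreated overlapped the 21 day arrays. Its rise was 0.75 ± 0.23 (adjusted p = 0.0319). Eed, the subunit that binds methylated lysine 27, read 7.92, 7.77 and 8.24 at 21 days and 6.92, 7.18 and 7.90 in untreated islets. It too overlapped at replicate 3 of untreated, and rose by 0.64 ± 0.21 (adjusted p = 0.0450). At 8 h Rbbp7 had already differed from untreated by 0.75 ± 0.23, Rbbp4 by 0.66 ± 0.29 and Eed by 0.50 ± 0.21. None of them was called there (limma adjusted p = 0.108, 0.273 and 0.258). The catalytic and scaffold subunits of Polycomb repressive complex 2 were not called at 21 days, with differences of 0.28 for Ezh2, -0.03 for Ezh1 and 0.17 for Suz12. Averaged over its 3 probe sets, however, Suz12 was called higher than untreated, by 0.28 (limma adjusted p = 0.0320). That average was also called higher than at 24 h, by 0.35 (0.00658). The call of Rbbp4 ended without replicate 3 of 21 days (adjusted p = 0.0533), and that of Rbbp7 without that array or without replicate 1 or 2 of untreated (up to 0.168). That of Eed held only without replicate 3 of untreated (up to 0.211 in the other fits).

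Kat2a, also known as GCN5, the acetyltransferase of the SAGA complex, had the largest fall at 21 days among the called genes. It read 8.86, 8.66 and 8.75 at 21 days and 9.69, 9.35 and 9.37 in untreated islets. No arrays overlapped, and the fall was 0.71 ± 0.15 (1.64-fold lower, limma adjusted p = 0.00287). The other acetyltransferases, Kat2b and Kat7, differed by -0.13 and 0.02 and were not called.

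Of the SWI/SNF and related genes, Smarca4 (BRG1), the catalytic ATPase of the complex, read 9.61, 9.29 and 9.76 at 21 days and 10.19, 10.07 and 9.83 in untreated islets. It fell by 0.48 ± 0.13 (1.39-fold lower, limma adjusted p = 0.0161). Smarce1, an accessory subunit, read 6.20, 6.14 and 6.19 at 21 days and 6.64, 7.15 and 6.85 in untreated islets, and fell by 0.70 ± 0.21 (adjusted p = 0.0279). Smarca5, the ATPase of the ISWI complexes, fell by 0.36 ± 0.10 (adjusted p = 0.0223) on the probe set with the highest mean. At 8 h that probe set had differed by -0.35 ± 0.10, which was not called (limma adjusted p = 0.0831). In each of the 3 genes the 21 day arrays did not overlap the untreated ones. Smarcb1, a core subunit, differed by -0.42 (adjusted p = 0.0541), and Smarca2, the alternative ATPase, by -0.78 (0.0994), with one 21 day array at 6.45 and another at 8.22. Dnmt3a fell by 0.38 ± 0.10 at 21 days (adjusted p = 0.0118). Calls did not all hold without single arrays. Dnmt3a ended without replicate 2 of 21 days (adjusted p = 0.0768), as did Smarca4 (up to 0.111 over the 3 fits that lost it, the others being those without replicate 1 or 2 of untreated) and Smarca5 (up to 0.105, also without replicate 3 of 21 days or replicate 2 of untreated). Smarce1 held only without replicate 1 of untreated, and its adjusted p rose to 0.123 in the other fits.

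Markers of other cells were not level between the 21 day and the untreated arrays. Of the 9 beta cell markers, 4 were called lower and none higher, with a median of -0.77. Of all genes 8.46% were called lower and 7.95% higher. None of 16 acinar markers was called, 14 of them had a negative difference, and the median was -1.56. Of 24 leukocyte markers none was called, with 7 positive and a median of -0.11. Of 9 endothelial markers 1 was called higher and 2 lower, with a median of -0.22, and none of 6 duct markers was called. When each array's average acinar and leukocyte levels were added as covariates, 16 of the 57 genes were called. That fit called Kdm3a, Kdm5b, Kmt2a, Kmt2e, Rbbp4 and Kat2a again, and not Eed, Hmga2 or Rbbp7. Called there but not in the main fit were Hdac5, Hmgb3, Kdm1a and Smarcb1. The share of all genes called in that fit is not given here, so its count has no background. The acinar means did not overlap, at 7.079 to 7.574 at 21 days and 7.724 to 10.03 in untreated islets.

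The start regions of 4 of these genes are shown because 2 of them moved up and 2 moved down together at 21 days, and because Myc with its partner Max is known to bind CACGTG and the variant CACGCG. Each runs 5′ to 3′ on the strand of the gene, from 250 bases before to 50 bases after a start on GRCm38.p6. In Smarca4, Kmt2a and Kat2a the gene given by RefSeq begins upstream of that start, at 21616106, 44881352 and 100712485. Positions and missing matches thus hold for the start used. Capitals mark every match to CACGTG or CACGCG on either strand, and of the genes shown Rbbp4 and Smarca4 have such matches.
Rbbp4, chr4:129335321-129335620, minus strand: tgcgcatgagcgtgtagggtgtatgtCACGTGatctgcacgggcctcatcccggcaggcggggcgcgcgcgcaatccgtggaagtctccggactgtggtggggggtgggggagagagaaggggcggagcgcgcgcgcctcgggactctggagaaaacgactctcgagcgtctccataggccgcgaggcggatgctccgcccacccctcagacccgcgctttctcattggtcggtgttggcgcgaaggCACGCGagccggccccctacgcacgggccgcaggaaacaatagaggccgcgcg
Smarca4, chr9:21615919-21616218, plus strand: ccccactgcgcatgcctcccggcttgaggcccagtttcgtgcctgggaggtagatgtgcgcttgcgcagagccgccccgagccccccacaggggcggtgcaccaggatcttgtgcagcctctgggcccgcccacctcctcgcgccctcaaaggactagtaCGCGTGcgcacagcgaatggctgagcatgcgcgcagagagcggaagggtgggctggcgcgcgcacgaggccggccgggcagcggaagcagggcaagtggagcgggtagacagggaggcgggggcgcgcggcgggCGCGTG
Kmt2a, chr9:44881240-44881539, minus strand: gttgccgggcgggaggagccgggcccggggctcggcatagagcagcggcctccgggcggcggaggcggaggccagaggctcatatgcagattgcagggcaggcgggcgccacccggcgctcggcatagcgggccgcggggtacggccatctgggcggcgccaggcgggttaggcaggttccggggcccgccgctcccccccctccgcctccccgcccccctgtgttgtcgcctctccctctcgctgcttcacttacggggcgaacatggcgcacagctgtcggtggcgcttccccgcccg
Kat2a, chr11:100712418-100712717, minus strand: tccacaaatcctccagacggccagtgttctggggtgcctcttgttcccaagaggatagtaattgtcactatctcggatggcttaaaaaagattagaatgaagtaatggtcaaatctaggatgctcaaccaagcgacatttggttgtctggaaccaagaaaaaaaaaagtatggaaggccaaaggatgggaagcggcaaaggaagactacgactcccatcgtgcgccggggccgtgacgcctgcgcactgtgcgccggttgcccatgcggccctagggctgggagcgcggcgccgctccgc
With the base at the start used counted as 1 and the base before it as -1, the Rbbp4 matches begin at -224 (CACGTG) and -3 (CACGCG). Those of Smarca4 begin at -90 and 45, both as CGCGTG, the reverse complement of CACGCG. Rbbp4 thus rose and Smarca4 fell with such letters near the start, and Kmt2a rose and Kat2a fell without them in this window.

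RefSeq start regions of this kind were at hand for 48 of the 57 genes, in 62 windows. CACGTG on either strand was found in 7 of the 48 genes (14.6%), namely Cbx5, Cbx6, Dnmt3a, Hdac5, Kdm6a, Rbbp4 and Sirt1. The share was 11.5% of the 6573 array genes with a window and 8.09% of all 27025 genes with a window. CACGCG was found in 15 (31.2%), against 17.9% of array genes and 10.5% of all genes. The E2F-type letters TTTGGCGC were found in Ezh2 alone (2.08%, against 1.13% of array genes and 0.585% of all genes). TTTCCCGC was found in Kmt5c, Smarcd1 and Suz12 (6.25%, against 2.21% and 1.24%). None of these motifs contains another. Kdm3a, Kdm5b, Hmgb2, Eed and Rbbp7, which rose at 21 days, had none of the 4 motifs in their windows. A match is a description of letters and not of binding.

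Hmgb2, Hmgb3 and Ezh2 had high values on single arrays. Hmgb2, which bends DNA and is abundant in dividing cells, read 5.24, 5.30 and 5.70 at 21 days and 3.94, 3.45 and 4.24 in untreated islets. It rose by 1.54 ± 0.51 (2.90-fold, limma adjusted p = 0.0463), with no overlap. The call ended when any 1 of the 6 arrays was left out (adjusted p up to 0.151), and the untreated values lie among those of bacterial controls. At 24 h Hmgb2 already read 4.38, 5.47 and 5.09, above each untreated array, a difference of 1.10 that was not called (adjusted p = 0.398). Its highest values were 6.64 on replicate 2 of 2 days off and 6.95 on replicate 1 of 6 days off. The other arrays of those groups read between 4.11 and 5.66.

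Hmgb3, a relative found in embryos and blood progenitors, had its highest values on the same 2 arrays, at 10.74 and 10.79. The other arrays of the series lay between 7.65 and 9.34. Ezh2 likewise read 8.03 and 7.58 there. The leukocyte markers of those arrays averaged 7.80 and 8.24, against 6.82 to 7.80 over the 2 days off group and 7.04 to 8.24 over the 6 days off group. Their acinar markers averaged 9.73, against 6.72 and 6.78 on the other arrays of 2 days off, and 9.46, against 7.55 and 8.11 on the other arrays of 6 days off. The list of DNA replication genes averaged 7.62 and 7.63 on these 2 arrays, and between 6.55 and 6.83 on the other 4 arrays of their groups. The list of mitosis genes averaged 7.66 and 7.84 on these 2 arrays, and between 6.47 and 7.01 on the other 4. Of the other 2 arrays rich in leukocyte markers, replicate 3 of 8 h was the highest of its group in all 3 genes, at 4.83 for Hmgb2, 9.33 for Hmgb3 and 7.47 for Ezh2, against 4.03 and 4.11 for Hmgb2 on the other arrays at 8 h. Replicate 1 of 2 h read 3.96 for Hmgb2, against 3.50 and 3.96 on the other arrays at 2 h. The part of these markers and lists in the levels was not tested. Hmga2, an architectural protein of embryonic tissue, rose by 0.33 ± 0.10 at 21 days (adjusted p = 0.0308), at levels of 4.92 to 5.20 against 4.57 to 4.87 in untreated islets, which are low on this array. Its call ended without replicate 3 of untreated or replicate 2 or 3 of 21 days, with adjusted p up to 0.147. Hmgn1, a nucleosome-binding member, differed by 0.39 and was not called (adjusted p = 0.179).

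**Figure D4:**
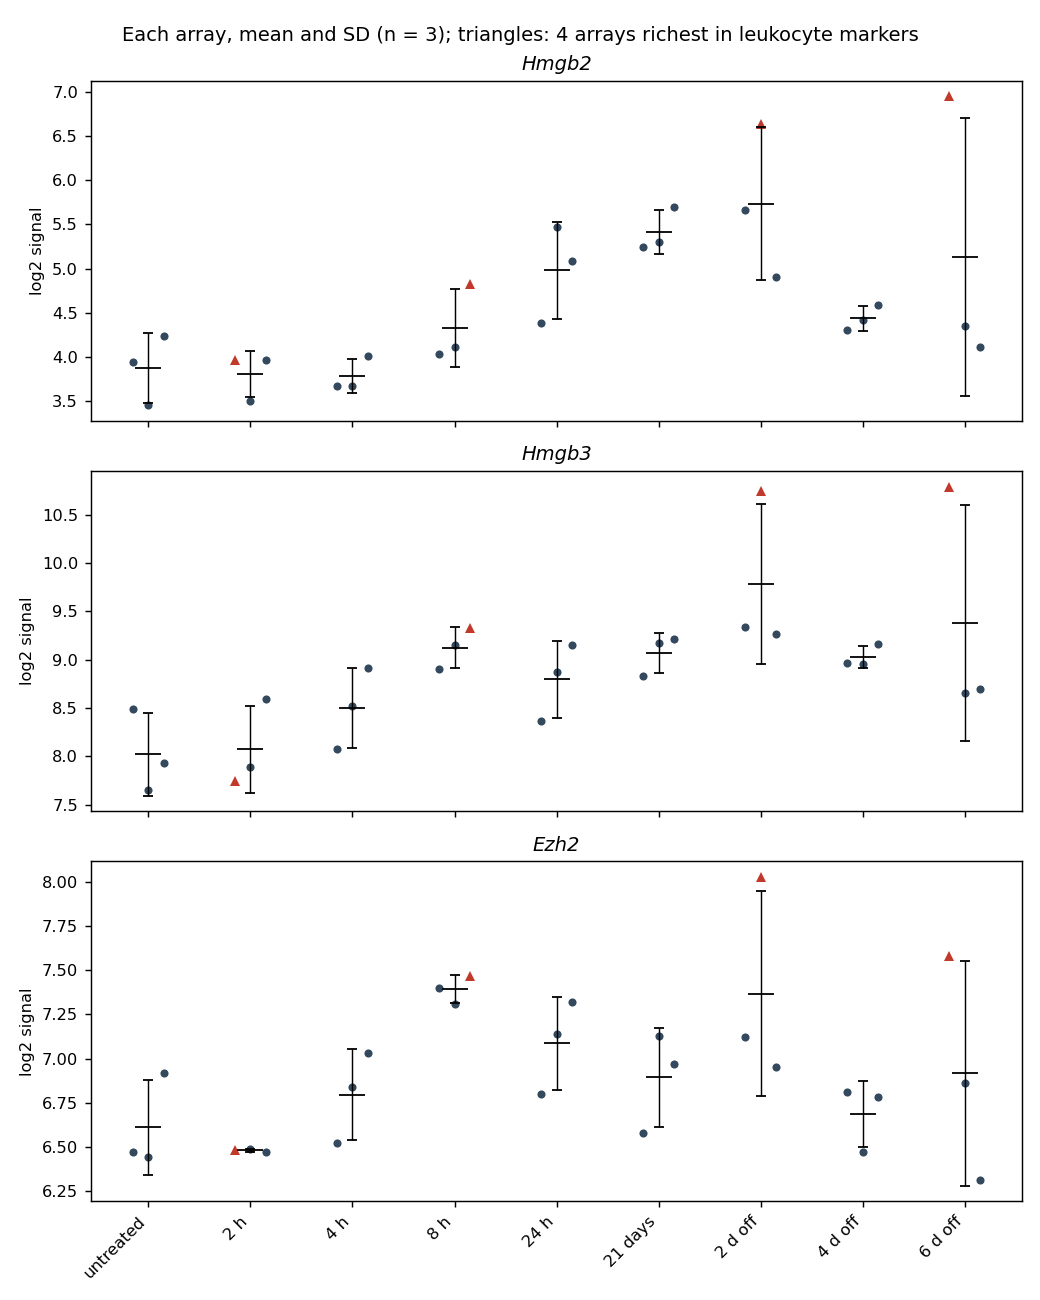
Log2 signal of Hmgb2, Hmgb3 and Ezh2 on every array in the 9 groups (circles, with red triangles for the 4 arrays richest in leukocyte markers), with the group mean and SD (bars, n = 3). The triangles at 2 and 6 days off are the highest points of Hmgb2 and Hmgb3, at 6.64 and 6.95 and at 10.74 and 10.79. The triangle at 8 h is the highest point of its group in all 3 genes, at 4.83 for Hmgb2.

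Across the 27 arrays the genes most like Hmgb2 were Ccna2 (Pearson r = 0.901), Plk4, Rfc4, Nusap1 and E2f8. Those most like Ezh2 were Pold1 (r = 0.865), Mcm3, Cdc6, Smc2 and Mcm2. These are genes of mitosis and of DNA replication, and the r values describe arrays that share their groups and their hybridisation. The list of mitosis genes had 15 of 28 called higher than untreated at 24 h, where 1.37% of all genes were, and 4 of 28 at 21 days, where 7.95% were. At 21 days 9 of the 28 were called lower than at 24 h, where 10.4% of all genes were. At 4 days off 3 of the 28 were called lower than at 21 days, where 2.39% of all genes were. The list of DNA replication genes had 5 of 27 called higher than untreated at 8 h, where 1.15% of all genes were, and 0 of 27 by limma at 24 h and at 21 days, with medians of 0.43 and 0.18.

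The 21 day and 24 h groups differ in length of treatment and, by the design text, in the drug and its dosing. These cannot be told apart. Of all genes 21.8% were called at 21 days against 24 h, 11.4% higher and 10.4% lower. Of the 57 chromatin genes 16 (28.1%) were called, 10 higher and 6 lower. Of these, 9 were also called against untreated. This is 9 of 15 calls against untreated and 9 of 16 against 24 h, and the comparisons share the 21 day arrays. Kmt2e was higher by 1.42 ± 0.29 at 21 days than at 24 h, Kdm3a by 1.04 ± 0.19, Kmt2a by 1.02 ± 0.17, Eed by 0.78 ± 0.21 and Kdm5b by 0.73 ± 0.09 (limma adjusted p between 3.41e-05 and 0.0129). Chd4, the ATPase of the NuRD complex, read 13.19, 13.16 and 13.05 at 21 days and 12.39, 12.46 and 12.53 at 24 h, a rise of 0.67 ± 0.15 (adjusted p = 0.00346). Kmt5c, Hmga2, Kdm1a and Cbx2 were higher by 0.55, 0.46, 0.37 and 0.32. Lower were Smarca4 by -0.63 ± 0.13, Kat2a by -0.49, Smarcb1 by -0.48, Kmt5a by -0.48, Ruvbl2 by -0.38 and Kdm5a by -0.27.

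This comparison ran together with a large difference in acinar RNA. All 16 acinar markers were lower at 21 days than at 24 h, with a median of -4.48. Of these 15 were called, where 10.4% of all genes were called lower. The 3′ minus 5′ signal of the Gapdh control, a measure of RNA quality and amplification, was 4.83 ± 0.08 at 21 days and 3.78 ± 0.11 at 24 h (SD, n = 3 each). With the acinar and leukocyte means as covariates 1 of the 16 calls was kept, that of Kdm5b, and all 16 differences kept their sign. The acinar means were 11.47 to 12.11 at 24 h and 7.079 to 7.574 at 21 days. As these did not overlap, the fit cannot separate the difference between the groups from that in acinar RNA. In that fit Kmt2e differed by 1.17 (limma adjusted p = 0.204), Chd4 by 0.86 (0.0538), Kdm3a by 0.72 (0.223), Hmga2 by 0.45 (0.175) and Kmt2a by 0.40 (0.344). With the Gapdh difference as a covariate 11 genes were called. Single arrays also mattered. The count fell to 9 without replicate 2 or replicate 3 of 21 days and to 7 without replicate 3 of 24 h, where those of Cbx2, Eed, Kat2a, Kdm1a, Kdm5a, Kmt5a, Kmt5c, Ruvbl2 and Smarcb1 ended. Those of Chd4, Hmga2, Kdm3a, Kdm5b, Kmt2a, Kmt2e and Smarca4 held without any 1 of the 6 arrays.

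After withdrawal of the drug the comparison with 21 days asked which genes turned back. At 2 days off 1 of the 57 genes was called against 21 days, Kdm5b, which was lower. The background was 0.17% in either direction, 0.158% higher and 0.0121% lower. Kdm5b read 6.82, 6.81 and 6.94 at 2 days off and 7.31, 7.40 and 7.46 at 21 days, and fell by 0.53 ± 0.09 (1.45-fold lower, limma adjusted p = 0.0334). Its 2 days off arrays thus lay near the untreated range of 6.67 to 6.84. The call ended in 4 of the 6 fits without 1 array, those without replicate 1 or 2 of 21 days or replicate 2 or 3 of 2 days off (adjusted p up to 0.158), although the difference there was between -0.58 and -0.50. Also without it were the fit of the 6 arrays, that without the 4 leukocyte-rich arrays and both covariate fits (limma adjusted p up to 0.249). The Gapdh 3′ minus 5′ signal was 4.77 to 4.92 at 21 days. After withdrawal it was 3.09 to 4.29 at 2 days, 3.46 to 4.06 at 4 days and 3.58 to 4.45 at 6 days. At 4 days off no gene was called, against a background of 6.91% (4.52% higher and 2.39% lower), and 8 (14%) had an unadjusted p under 0.05, against 29.5% of all genes. The smallest p belonged to Chd1l, an ATPase recruited to DNA damage, at -0.38 (adjusted p = 0.0601), Kdm5b at -0.27 (0.0764) and Kdm1a, a lysine 4 demethylase, at -0.35 (0.0909). At 6 days off none was called against 21 days either, against 0.339% of all genes (0.121% higher and 0.218% lower), and 7 (12.3%) had an unadjusted p under 0.05, against 14.8% of all genes. The smallest p belonged to Kdm5b at -0.41 ± 0.09 (adjusted p = 0.0614), Ezh1 at -0.66 ± 0.15 (0.0669) and Kdm3a at -0.77 ± 0.19 (0.0816). In each of these 3 genes the 6 days off arrays lay below those of 21 days.

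The genes called higher at 21 days took different courses after withdrawal. Kdm3a averaged 8.35 ± 0.13 in untreated islets, 9.50 ± 0.50 at 21 days, 9.48 ± 0.22 at 2 days off, 9.42 ± 0.29 at 4 days off and 8.73 ± 0.06 at 6 days off (SD, n = 3 each). Kmt2a averaged 9.95 ± 0.23 in untreated islets, 10.89 ± 0.19 at 21 days, 10.99 ± 0.31 at 2 days off, 11.03 ± 0.14 at 4 days off and 10.23 ± 0.16 at 6 days off. Kmt2e had means of 8.50, 9.73, 9.55, 9.72 and 9.02 in the same order. All 3 genes thus stayed within their spread of the 21 day level for 4 days and were lower in mean at 6 days, a difference from 21 days that was not called (adjusted p = 0.0816, 0.0924 and 0.280). Eed, by contrast, had its highest mean at 2 days off, with arrays at 8.42, 8.28 and 8.49. Kdm5b averaged 7.39 at 21 days and 6.86, 7.12 and 6.98 at 2, 4 and 6 days off. In the same order Rbbp4 averaged 8.68, 8.61, 8.81 and 8.47, and Rbbp7 10.88, 11.18, 11.32 and 10.94. Hmgb2 averaged 5.41, 5.74, 4.44 and 5.14, and Hmga2 5.08, 4.99, 4.83 and 5.02.

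Suz12, on its main probe set, and Kdm6a were not called at 21 days and had their highest means at 2 days off. Suz12, the scaffold subunit of Polycomb repressive complex 2, read 6.30, 6.49 and 6.76 at 2 days off and 5.78, 6.06 and 5.81 at 21 days. The groups did not overlap, and the difference of 0.63 ± 0.15 was not called (limma adjusted p = 0.0845). Kdm6a (UTX), which removes the methyl groups that Polycomb repressive complex 2 places, read 6.38, 6.94 and 7.30 at 2 days off and 6.01, 6.25 and 6.26 at 21 days. That difference was 0.70 and not called either (adjusted p = 0.226). Both genes were called in the F test across the 9 groups, with adjusted p of 0.000418 for Suz12 and 0.00493 for Kdm6a.

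After 6 days without drug 10 of the 57 genes (17.5%) were called against untreated islets, 4 higher and 6 lower, against 13.5% of all genes (5.56% higher and 7.95% lower). Kat2a read 8.28, 8.53 and 8.58 at 6 days off and 9.69, 9.35 and 9.37 in untreated islets, and fell by 1.01 ± 0.15 (2.01-fold lower, limma adjusted p = 0.000291). The arrays lay apart, and the 6 days off mean was the lowest of the 9 groups. Ezh1, the Polycomb methyltransferase of cells that do not divide, read 8.85, 8.88 and 8.81 at 6 days off and 9.67, 9.23 and 9.72 in untreated islets, and fell by 0.69 ± 0.15 (adjusted p = 0.00585). Dnmt3a fell by 0.57 ± 0.10 (adjusted p = 0.00103), Smarce1 by 0.76 ± 0.21 (0.0219), Smarca4 by 0.54 ± 0.13 (0.00911) and Smarcb1 by 0.48 ± 0.14 (0.0324). Higher were Hmgb3 by 1.36 ± 0.44 (adjusted p = 0.0458), Rbbp4 by 0.99 ± 0.29 (0.0298), Rbbp7 by 0.80 ± 0.23 (0.0258) and Hdac1, a class I deacetylase of the NuRD and Sin3 complexes, by 0.44 ± 0.13 (0.0316). Of the markers 3 of 9 of beta cells, 2 of 9 of endothelial cells and 2 of 6 of ducts were called lower at 6 days off than in untreated islets, and none of 16 acinar or 24 leukocyte markers was called. Of 28 mitosis genes 2 were called higher. The part of these in the calls was not tested.

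Of these 10 genes, 6 were also among the 15 called at 21 days against the same untreated arrays, namely Kat2a, Dnmt3a, Smarca4, Smarce1, Rbbp4 and Rbbp7. Without the 4 arrays richest in leukocyte markers, which include replicate 1 of 6 days off, 5 of the 57 were called, and Hmgb3, Hdac1, Smarca4, Smarcb1 and Smarce1 were not. Without that array alone Hmgb3 was higher by 0.66 (adjusted p = 0.292). The calls of Kat2a, Dnmt3a and Ezh1 held without any 1 of the 6 arrays. Those of the other 7 ended in between 1 and 4 of the 6 fits, with adjusted p up to 0.0571 for Smarca4, 0.103 for Smarce1, 0.148 for Rbbp4, 0.159 for Smarcb1, 0.161 for Rbbp7 and 0.163 for Hdac1. The count fell to 5 without replicate 1 of untreated and to 6 without replicate 1 of 6 days off. In a fit of the 6 arrays alone no gene was called.

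Set against each other whole, the 12 arrays of the 21 day course, on and off drug, were separated from the 15 others by 1 gene in each direction. Kdm3a read 8.67 to 10.07 on the 12 and 7.81 to 8.52 on the 15. Kat2a read 8.28 to 8.86 on the 12 and 9.04 to 9.87 on the 15. Over all genes 1.14% were higher and 1.44% lower on all 12 arrays. The length of treatment goes with the course and cannot be told apart from it.

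In the families without a call at 21 days some differences were as large as those of called genes such as Kdm5a and Hmga2. Hdac1 differed by 0.34 (95% interval 0.07 to 0.61), Hdac2 by 0.12 (-0.32 to 0.56) and Hdac5 by -0.38 (-0.72 to -0.05). Sirt1 differed by 0.19 (-0.13 to 0.50). Ruvbl1 and Ruvbl2, both ATPases of the INO80 complex and known partners of Myc, differed by -0.01 (-0.34 to 0.32) and -0.02 (-0.29 to 0.25). Cbx1 and Cbx5, heterochromatin proteins of the HP1 family, differed by 0.45 (0.03 to 0.88) and 0.33 (0.03 to 0.64). Cbx6, a chromobox protein of Polycomb repressive complex 1, differed by 0.40 (-0.07 to 0.88). The helicases Chd7 and Chd4 differed by 0.41 (-0.10 to 0.91) and 0.32 (0.01 to 0.63). Ruvbl2 averaged 7.84 ± 0.15 in untreated islets, 8.10 ± 0.07 at 2 h, 8.16 ± 0.05 at 4 h, 8.10 ± 0.23 at 8 h, 8.20 ± 0.16 at 24 h and 7.82 ± 0.14 at 21 days (SD, n = 3 each). It was called lower at 21 days than at 24 h only.

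Of the 57 genes 15 have more than 1 probe set, with 18 further probe sets in all, and these did not always move with the one used above. At 21 days against untreated 10 of the 18 had the same sign as the gene's main probe set and 7 the opposite. The second Smarcad1 probe set rose by 0.93 (limma adjusted p = 0.00509), while the main one differed by 0.05. The second Cbx6 probe set rose by 0.80 (0.0248), while the main one differed by 0.40. For Smarca5 the probe sets disagreed in direction. The main one fell, and the second differed by 0.56 (adjusted p = 0.0571) and was called higher against 24 h, by 0.73 (0.0118). The mean of both gives Smarca5 a difference of 0.10 from untreated, in the opposite direction. The second probe sets of Smarca4 and Dnmt3a differed by 0.08 and 0.21, at mean levels of 5.16 and 3.28 where bacterial controls also lie, and that of Kmt2a by 0.54 (adjusted p = 0.221). Directions for Smarca5, Smarca4 and Dnmt3a therefore hold for the main probe set only.

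**Figure D5:**
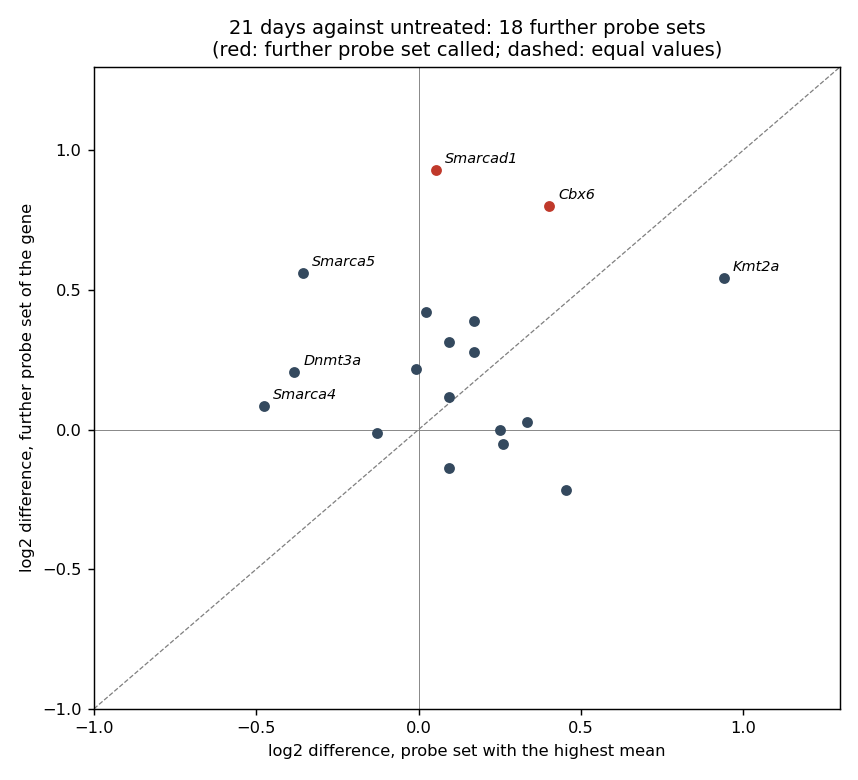
Log2 difference between 21 days and untreated for the 18 further probe sets (vertical axis) against the probe set with the highest mean of the same gene (horizontal axis), with called further probe sets in red and the line of equal values dashed. Smarcad1 and Cbx6 are the 2 red points, at 0.93 and 0.80, and Smarca5, Smarca4 and Dnmt3a lie on opposite sides of 0 on the 2 axes.

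Kdm5d, a demethylase gene on the Y chromosome, read 5.57 to 6.04 on all 27 arrays. Another Y-linked gene, Eif2s3y, split them into 16 arrays at 6.36 to 8.05 and 11 at 4.13 to 4.59. Kdm5d read 5.57 to 6.04 on the 16 and 5.58 to 5.94 on the 11, so its probe set did not follow the other Y-linked gene. Eif2s3y read 4.15, 7.30 and 8.05 in untreated islets, 4.27, 4.43 and 6.75 at 4 days off and 4.35, 6.59 and 4.46 at 6 days off. The sex of the mice is not in the labels. The part of this split in the X-linked genes Kdm6a, Rbbp7, Hmgb3 and Hdac6 was not tested.

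Of 88 other chromatin genes listed, 59 were measured. At 21 days against untreated 11 were called higher and 2 lower, with a median of 0.10, where 7.95% of all genes were called higher and 8.46% lower, with a median of 0.03. The largest calls were Npm1, a nucleolar histone chaperone, at 1.28, Set, an inhibitor of histone acetylation, at 1.16, and Bmi1, a subunit of Polycomb repressive complex 1, with means of 9.38 at 21 days and 8.38 in untreated islets. Set was called as early as 4 h, at 1.23 (limma adjusted p = 0.0176), and at 8 h, at 1.42. Also called at 8 h were Uhrf1, which recognises hemimethylated DNA, at 0.95 and the histone chaperone Nasp at 0.68, and at 24 h the histone variant gene H2az1 at 1.17. These were 1 of the 59 at 4 h, 3 at 8 h and 1 at 24 h, where 0.57%, 1.15% and 1.37% of all genes were called higher. At 21 days against 24 h 8 were higher and 5 lower, against 11.4% and 10.4% of all genes, with Prmt1, an arginine methyltransferase, lower at -1.25 and Mtf2 and Ehmt2 higher at 0.95 and 0.82. At 4 days off Actl6a and Sin3b were higher than at 21 days by 0.75 and 0.63, where 4.52% of all genes were called higher. At 6 days off 3 were higher and 3 lower than in untreated islets, against 5.56% and 7.95% of all genes. In the remaining comparisons none was called.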

How the data were processed

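RNA from laser-captured islets was measured on 27 one-colour arrays, 3 in each of 9 groups taken from the labels. Per the labels, total RNA was amplified linearly in 2 rounds and labelled with biotin. The deposited log2 values were made with RMA, as the submitters' processing notes state. The RMA version, scan dates and hybridisation batches are not given in the labels or headers, so batches were not tested. RMA shrinks differences of dim probe sets, and amplification can lower signal far from the 3′ end. Of 12488 probe sets 66 controls were left out. Symbols came from the platform annotation, in which 10833 of the 12422 tested had 1 symbol, 396 several and 1193 none. All 57 genes matched a RefSeq entry of GRCm38.p6.

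Differences were tested two-sided with limma 3.58.1 (R 4.3.3) on all 27 arrays (9 group means, 18 residual degrees of freedom), with Benjamini-Hochberg adjustment over 12422 probe sets. No p is given for 3 arrays against 3 by permutation. The members, families, other lists and tests were chosen with earlier results of these data known. Every called gene was named in its comparison, or the 3 smallest p where none was called. Simulated tables had 200 of 12422 probe sets changed in the tested group, with noise independent between arrays and probe sets. In the data 1819 probe sets were called at 21 days against untreated, so the rates hold for the simulated setting only. On simulated data for 21 days against untreated the fit found 36.4% of log2 changes of 0.5, 89.0% of those of 1 and 98.2% of those of 2. False calls made up 4.37%. For 4 days off against 21 days it found 34%, 91% and 99.1%, and 6.16% of the calls were false. Other settings were median centring, quantile normalization, a filter on the dimmest 40% of probe sets, trend and robust variance, a fit of 6 arrays, a replicate block, averaging the probe sets of each gene and leaving out single arrays. Added after seeing the data were a fit that leaves out 4 leukocyte-rich arrays and fits with acinar and leukocyte means or the Gapdh 3′ minus 5′ signal as covariates.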

Additional observations from a re-analysis of the deposited data

How the results depend on the processing

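Counts of called genes moved by over 1.5 times in the settings that follow. In the fit of the 6 arrays compared, 9 genes were called at 21 days against untreated, 0 at 8 h, 0 at 2 days off, 2 at 4 days off (Hmgb2 and Kdm6a) and 0 at 6 days off against untreated. Quantile normalization called 2 at 8 h and 4 at 6 days off against 21 days (Ezh1, Kdm3a, Kdm5b and Kmt2a). The filter on dim probe sets called 1 at 4 h (Hdac6). Averaging the probe sets of each gene called 0 at 8 h and 1 at 4 days off (Smarcd2), and turned Smarca5 at 21 days to 0.10 (adjusted p = 0.639), since its probe sets disagree. Without the 4 leukocyte-rich arrays there were 1 at 4 h, 0 at 8 h, 1 at 24 h (Hmgb2), 0 at 2 days off, 1 at 4 days off and 5 at 6 days off against untreated. Acinar and leukocyte covariates gave 0 at 8 h, 1 at 21 days against 24 h, 0 at 2 days off and 2 at 4 days off. The Gapdh covariate gave 0 at 2 days off and 1 at 4 days off. The share of all genes called is given for the main fit only, not for other settings or fits without 1 array. The cause of these shifts was not tested.

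Replicate numbers link arrays by number only: same-numbered arrays deviated with r from -0.234 to 0.361 over 30 pairs, and no comparison had all 3 pairs above 0.1. The replicate block called 1 at 4 days off (Chd1l) and 1 at 6 days off against 21 days (Kdm5b), and changed the other counts by less than 1.5 times (14 at 21 days against untreated). Over the fits without 1 array the counts ranged from 0 to 0 at 2 h, 0 to 1 at 4 h, 0 to 3 at 8 h, 0 to 0 at 24 h, 7 to 11 at 21 days against untreated, 7 to 14 against 24 h, 0 to 2 at 2 days off, 0 to 2 at 4 days off, 0 to 0 at 6 days off against 21 days, 5 to 10 against untreated and 24 to 31 in the F test. Of 43 called results, 15 held in all of these fits. Signal near that of bacterial controls limits Hmgb2, Hmga2 and other dim genes.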
